A study of Mus musculus with 8 samples.

Results

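The 10 genes described here encode the factors of YAP-TEAD transcription and a few of its targets, measured by RNA sequencing in cardiomyocytes of mice with and without deletion of Carm1. They are the coactivators Yap1 and Wwtr1 (whose protein is called TAZ), the DNA-binding factors Tead1, Tead2, Tead3 and Tead4, and the target genes Ccn1 (formerly Cyr61), Ccn2 (formerly Ctgf), Amotl2 and Lats2. They were taken by gene symbol and make up 10 of the 54752 gene IDs in the deposited table of counts. The filter on low counts kept 9 of them for testing and left out Lats2.

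Carm1 is an arginine methyltransferase that acts on histones and other proteins, and the study concerned its place in the maturation of the heart after birth. All mice, controls included, carried the floxed Carm1fl/fl alleles. The groups were 3w KO (injected with AAV9-Cre), 3w control (AAV9-GFP), 1w KO (AAV9-Cre) and 1w control (AAV9-GFP), with 2 libraries each and 8 in all. AAV9 is an adeno-associated virus that infects heart muscle, and Cre cuts out the floxed part of the gene. The injection days labelled for the libraries of a group were postnatal days 3 and 4 at 3w and postnatal days 1 and 2 at 1w, the same for KO as for control. The hearts were mosaics of infected and uninfected cells, the cardiomyocytes were isolated on a Langendorff perfusion system, and no sorting is described. The promoter that drives Cre is not given in the labels, and no group had Cre without floxed alleles, so that an effect of Cre itself and loss of Carm1 cannot be told apart. Whether the libraries within a group come from different animals is not stated outright in the labels. The spread behind each p-value is therefore that between libraries and may be technical. In the comparison of KO with control over both ages, that spread also holds any difference between the changes at the 2 ages.

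Total counts per library lay between 20818285 and 53671626, and mitochondrially encoded genes took 40.7 to 47.8% of them. Levels are given as CPM, each gene's count relative to the total of its library after TMM scaling. Carm1 itself had 17.3 and 17.8 CPM in 3w KO, 39.9 and 39.3 CPM in 3w control, 22.2 and 22.4 CPM in 1w KO, and 40.5 and 39.1 CPM in 1w control, so all 4 KO libraries lay below all 4 control libraries. Of 10 cardiomyocyte markers, 8 were detected and summed to 41360 to 90950 CPM, while Actc1 and Pln were listed at 0 in every library. Summed Y-linked counts were 3 and 2 in 3w KO, 6765 and 4814 in 3w control, 5025 and 4282 in 1w KO, and 1 and 0 in 1w control. An effect of KO at a single age and a difference that goes with these transcripts therefore cannot be told apart. The comparison of KO with control over both ages is balanced for them.

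In the Hippo pathway, the kinases encoded by Stk3 and Stk4 activate the kinases Lats1 and Lats2, which phosphorylate YAP and TAZ and keep them out of the nucleus. Unphosphorylated YAP and TAZ enter the nucleus, bind the TEAD factors and raise transcription of genes such as Ccn1, Ccn2 and Amotl2, some of which, Lats2 and Amotl2 among them, restrain the pathway in turn. In the mouse heart YAP is known for driving proliferation of cardiomyocytes before and shortly after birth.

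TEAD factors recognise the letters GGAATG, which read CATTCC on the other strand. The table of RefSeq promoter windows (250 bases before to 50 after each start, GRCm38.p6) was matched by symbol for 7 members, leaving Ccn2, Tead1 and Tead4. Searched on both strands, the motif was found in a window of 6 of these 7 (Yap1, Wwtr1, Tead3, Ccn1, Amotl2 and Lats2) and not in that of Tead2. Among all 27025 genes with such windows 16.6% held it. A match describes the letters and is not evidence of binding. The 200 bases before the start are shown for Ccn1, the target gene that was called in every comparison below, and for both coactivators. All are from the minus strand, 5′ to 3′, with the motif in capitals, and they lie at chr3:145649986-145650185 for Ccn1, chr9:8004597-8004796 for Yap1 and chr3:57575911-57576110 for Wwtr1.
Ccn1: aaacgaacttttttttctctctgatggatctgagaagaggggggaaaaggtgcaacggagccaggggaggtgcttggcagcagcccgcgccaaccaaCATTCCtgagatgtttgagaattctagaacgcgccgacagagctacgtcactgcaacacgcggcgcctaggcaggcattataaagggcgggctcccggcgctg
Yap1: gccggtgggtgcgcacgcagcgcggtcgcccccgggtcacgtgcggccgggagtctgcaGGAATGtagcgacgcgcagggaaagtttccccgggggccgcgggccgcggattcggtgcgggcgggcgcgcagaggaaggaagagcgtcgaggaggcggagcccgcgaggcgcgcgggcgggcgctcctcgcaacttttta
Wwtr1: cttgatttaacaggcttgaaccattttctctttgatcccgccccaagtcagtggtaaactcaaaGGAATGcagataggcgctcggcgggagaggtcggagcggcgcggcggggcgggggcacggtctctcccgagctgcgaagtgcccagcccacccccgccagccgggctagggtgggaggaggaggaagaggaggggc
The motif began 103 bases before the start in Ccn1, 141 in Yap1 and 136 in Wwtr1.

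The secreted targets Ccn1 and Ccn2 were higher in KO than in control cardiomyocytes at both ages, and more so at 1w. At 1w, Ccn2, Ccn1 and Amotl2 rose while Tead1 and Yap1 fell, so that 3 of the 9 tested members rose and 2 fell, against 43% of all genes called in either direction. At 3w, Ccn1, Tead2, Ccn2 and Yap1 rose and Tead1 fell (though not without scaling factors), which is 5 of 9 members against 49.2% of all genes. Over both ages together Ccn1 rose and Tead1 fell, which is 2 of 9 members against 30.7% of all genes. The change with KO differed between the ages for 7 of 9 members, against 35.6% of all genes. Calls are at an adjusted p under 0.05 in the quasi-likelihood F-test of edgeR, adjusted after Benjamini and Hochberg over 14665 genes and named edgeR below, and changes are log2 fold changes ± SE. Without scaling factors, rises made up 84.1% in place of 49.6% of all calls at 3w, 73.7% in place of 53.5% at 1w and 87.6% in place of 52.9% over both ages. The shares called among the members at 1w, at 3w and over both ages are near those among all genes.

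**Figure D1:**
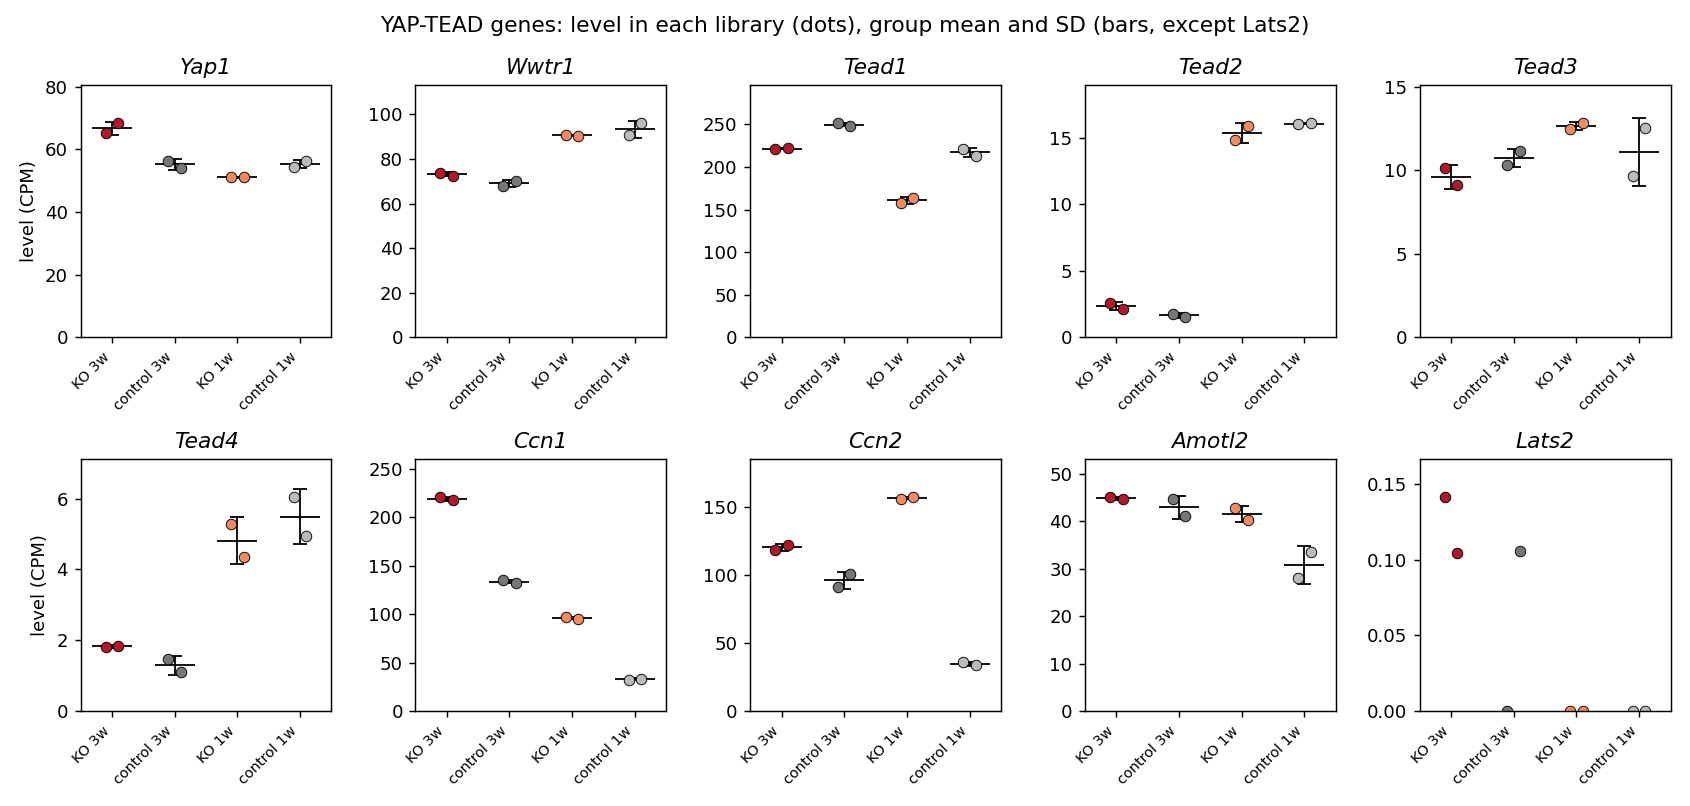
Level of each member in CPM (y axis, from 0) in the libraries of KO 3w, control 3w, KO 1w and control 1w (x axis). Points are libraries and bars are the group mean and SD (n = 2), except for Lats2. Ccn1 and Ccn2 stand lowest in 1w control, and Tead2 and Tead4 stand low in all 4 libraries at 3w.

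Yap1 encodes the YAP coactivator. It had 65.3 and 68.2 CPM in 3w KO, 56.4 and 54.0 CPM in 3w control, 51.2 and 51.0 CPM in 1w KO, and 54.4 and 56.2 CPM in 1w control. Both KO libraries lay above both control libraries at 3w and below them at 1w, and the control libraries of the 2 ages overlapped. With KO the change was 0.27 ± 0.044 at 3w (edgeR adjusted p = 4.84e-07) and -0.12 ± 0.045 at 1w (edgeR adjusted p = 0.0293). The rise at 3w was called under all 15 alternative settings, whereas the fall at 1w was called in 9 of 15: among others it was lost with DESeq2 (adjusted p = 0.129), without control 1w replicate 2 (-0.09, edgeR adjusted p = 0.232), without KO 1w replicate 1 (edgeR adjusted p = 0.121) and without KO 1w replicate 2 (edgeR adjusted p = 0.142). Over both ages the change was 0.08 ± 0.076 (edgeR adjusted p = 0.46). Of Yap1's 9257 exonic bases, 116 are shared with Gm20416 on the other strand, which had no counts.

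Wwtr1 encodes TAZ, the paralogue of YAP. Its levels were 73.8 and 72.5 CPM in 3w KO, 67.9 and 70.2 CPM in 3w control, 90.8 and 90.5 CPM in 1w KO, and 90.7 and 95.9 CPM in 1w control. The libraries separated by age, with all 4 at 3w below all 4 at 1w. With KO the change was 0.08 ± 0.042 at 3w (edgeR adjusted p = 0.0887) and -0.04 ± 0.039 at 1w (edgeR adjusted p = 0.382), neither of them called. Without scaling factors Wwtr1 was called higher at 3w (0.33, edgeR adjusted p = 1.54e-08), where the median of all genes was 0.25, and over both ages (0.19, edgeR adjusted p = 0.0373), where it was 0.18. Per kilobase of exon Wwtr1 stood above Yap1 in every library. The ratio of Yap1 to Wwtr1 on that scale was 0.457 and 0.486 in 3w KO, 0.429 and 0.397 in 3w control, 0.291 and 0.291 in 1w KO, and 0.310 and 0.302 in 1w control, higher in all libraries at 3w than in any at 1w.

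Tead1 was the most abundant of the TEAD factors, which bind DNA and carry YAP or TAZ to their targets. It had 221 and 222 CPM in 3w KO, 251 and 248 CPM in 3w control, 158 and 164 CPM in 1w KO, and 221 and 213 CPM in 1w control. At each age both KO libraries lay below both control libraries. The change with KO was -0.43 ± 0.033 at 1w (edgeR adjusted p = 2.33e-17). At 3w it was -0.17 ± 0.033 (edgeR adjusted p = 1.1e-05), but 0.08 without scaling factors, a setting in which the median of all genes stood at 0.25. Over both ages Tead1 fell by 0.30 on the log2 scale (SE 0.057, edgeR adjusted p = 0.0043), and the value was -0.13 without scaling factors (edgeR adjusted p = 0.231). Subtracting the change at 1w from that at 3w gave 0.26 ± 0.047 (edgeR adjusted p = 6.7e-06), that is, less of a fall at 3w.

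Tead2 and Tead4 were low at 3w in both genotypes. Tead2 had 2.58 and 2.16 CPM in 3w KO, 1.76 and 1.52 CPM in 3w control, 14.85 and 15.9 CPM in 1w KO, and 16.1 and 16.1 CPM in 1w control. Its libraries at 3w were all far below those at 1w, and at 3w KO lay above control. The change of Tead2 with KO at 3w was 0.51 ± 0.183 (edgeR adjusted p = 0.017), a call lost with DESeq2 (adjusted p = 0.0662), without control 3w replicate 2 (0.40, edgeR adjusted p = 0.118) and without KO 3w replicate 1 (0.36, edgeR adjusted p = 0.215). At 1w the change of Tead2 was -0.07 ± 0.077 (edgeR adjusted p = 0.521). Tead4 had 1.80 and 1.85 CPM in 3w KO, 1.48 and 1.10 CPM in 3w control, 5.28 and 4.34 CPM in 1w KO, and 6.04 and 4.95 CPM in 1w control. KO and control overlapped at 1w, and at 3w KO lay above control. The change of Tead4 was 0.47 ± 0.219 at 3w (edgeR adjusted p = 0.0726) and -0.16 ± 0.131 at 1w (edgeR adjusted p = 0.336). The value at 3w was called without control 3w replicate 1 (0.73, edgeR adjusted p = 0.0401) and without scaling factors (0.71, edgeR adjusted p = 0.00577).

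Tead3 had 10.1 and 9.10 CPM in 3w KO, 10.3 and 11.1 CPM in 3w control, 12.5 and 12.8 CPM in 1w KO, and 9.65 and 12.5 CPM in 1w control. The 1w control group had the widest spread, and its libraries overlapped with those of 3w control and 1w KO. No change of Tead3 with KO was called, at -0.15 ± 0.098 at 3w (edgeR adjusted p = 0.198) and 0.16 ± 0.089 at 1w (edgeR adjusted p = 0.147). The value at 1w was called without control 1w replicate 2 (0.39, edgeR adjusted p = 0.00441) and without scaling factors (0.26, edgeR adjusted p = 0.019), where the value at 3w was 0.10.

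Levels of the TEAD genes were compared with each other per kilobase of exon. Tead1 made up 87% of the summed level of the TEAD genes in 3w KO, 88.9% in 3w control, 64.8% in 1w KO and 71% in 1w control. Tead2 made up 2.64% in 3w KO, 1.66% in 3w control, 17.6% in 1w KO and 14.9% in 1w control. The summed level itself moved less, at 18.83 and 18.68 CPM per kilobase in 3w KO, 20.83 and 20.58 in 3w control, 18.05 and 18.5 in 1w KO, and 22.76 and 22.33 in 1w control. After TMM scaling it was lower in all 4 KO libraries than in all 4 control libraries. The order at 3w rests on that scaling, with factors of 0.917 and 0.916 in 3w KO and 0.782 and 0.759 in 3w control. Tead1, the largest part of the sum, had 0.08 with KO at 3w without scaling factors.

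**Figure D2:**
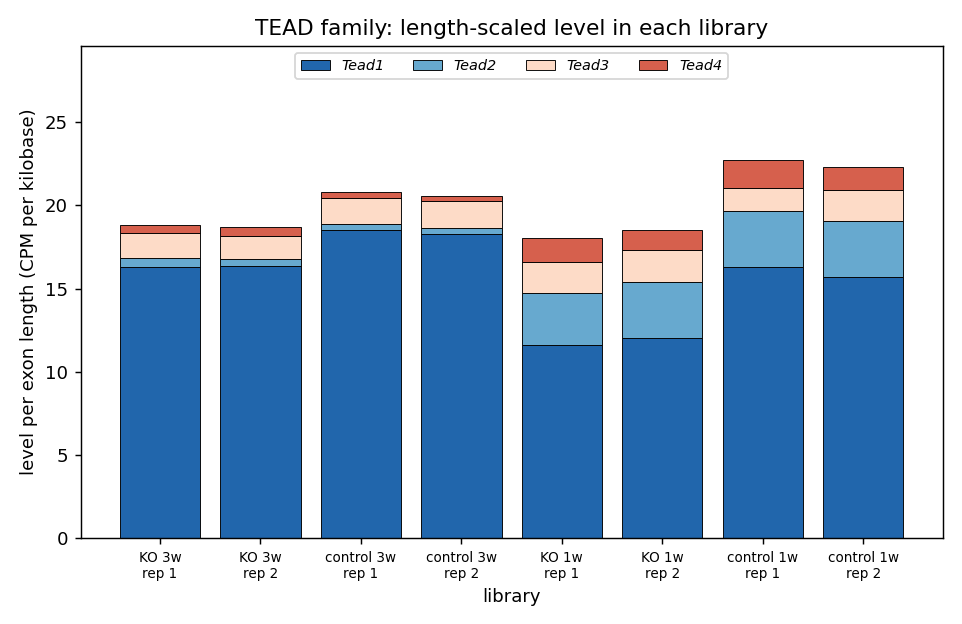
Levels of the 4 TEAD genes in CPM per kilobase of exon (y axis, from 0), stacked for each library, with KO left of control at each age. Tead1 takes 64.8 to 88.9% of the group sums, and the parts of Tead2 and Tead4 shrink at 3w.

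Ccn1 encodes a secreted matrix-associated protein of the CCN family and is among the best known YAP targets. It had 221 and 218 CPM in 3w KO, 135 and 132 CPM in 3w control, 96.8 and 95.1 CPM in 1w KO, and 32.4 and 33.5 CPM in 1w control. The groups did not overlap and were ordered as 3w KO, 3w control, 1w KO and 1w control, each step far wider than the spread within a group. Group means were 219 ± 2.3 CPM in 3w KO, 134 ± 1.7 CPM in 3w control, 95.9 ± 1.2 CPM in 1w KO and 33.0 ± 0.77 CPM in 1w control (SD, n = 2 each). With KO the change was 0.71 ± 0.035 at 3w (1.639-fold, edgeR adjusted p = 1.24e-26) and 1.54 ± 0.042 at 1w (2.903-fold, edgeR adjusted p = 9.14e-40). Over both ages it was 1.12 ± 0.157 (edgeR adjusted p = 0.0021). The rise was smaller at 3w by 0.82 on the log2 scale, with a difference of -0.82 ± 0.055 (edgeR adjusted p = 5.61e-20).

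Ccn2, another secreted CCN protein tied to fibrosis, had 118 and 122 CPM in 3w KO, 91.3 and 100.5 CPM in 3w control, 156 and 157 CPM in 1w KO, and 35.7 and 33.6 CPM in 1w control. All 4 KO libraries lay above all 4 control libraries, with the highest level in 1w KO and the lowest in 1w control. The change with KO was 0.33 ± 0.040 at 3w (1.256-fold, edgeR adjusted p = 2.77e-10) and 2.18 ± 0.044 at 1w (4.532-fold, edgeR adjusted p = 7.7e-46). At 1w this was a larger change in size than that of 98.5% of all genes tested. The difference of the changes at 3w and 1w was -1.85 ± 0.060 (edgeR adjusted p = 7.97e-35). Over both ages the value was 1.24 ± 0.396 and was not called (edgeR adjusted p = 0.0607). The spread in that fit also holds the difference between the changes at the 2 ages. The value over both ages was called with DESeq2 (adjusted p = 0.00691) and without scaling factors (1.42, edgeR adjusted p = 0.0165). Of Ccn2's 2861 exonic bases, 665 are shared with Gm15270 on the other strand, and since the strand setting of the counting is not given, reads there cannot be told apart.

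Amotl2 encodes an angiomotin-like protein that binds YAP and holds it outside the nucleus. It had 45.1 and 44.6 CPM in 3w KO, 44.7 and 41.2 CPM in 3w control, 42.7 and 40.3 CPM in 1w KO, and 28.0 and 33.6 CPM in 1w control. The 1w control group stood below all other libraries, and KO and control overlapped at 3w. With KO the change was 0.41 ± 0.060 at 1w (edgeR adjusted p = 5.2e-07) and 0.06 ± 0.058 at 3w (edgeR adjusted p = 0.434). Without scaling factors the value at 3w was called (0.31, edgeR adjusted p = 0.000269). Subtracting the change at 1w from that at 3w gave -0.36 ± 0.084 (edgeR adjusted p = 0.000816), a call lost without scaling factors (-0.21, edgeR adjusted p = 0.0846). Over both ages the value was 0.24 ± 0.087 (edgeR adjusted p = 0.0598), and it was called without control 3w replicate 1 (0.29, edgeR adjusted p = 0.0379) and without scaling factors (0.42, edgeR adjusted p = 0.00364).

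Lats2, the kinase that phosphorylates YAP and TAZ, was listed at 4 and 3 counts in 3w KO, 0 and 3 counts in 3w control, 0 and 0 counts in 1w KO, and 0 and 0 counts in 1w control. It was not tested. Of its 6971 exonic bases, 2955 are shared with Gm49361 on the same strand. Since genes used throughout heart muscle such as Actc1 and Pln are also listed at 0, these values are not read as an absence of Lats2 transcripts.

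**Figure D3:**
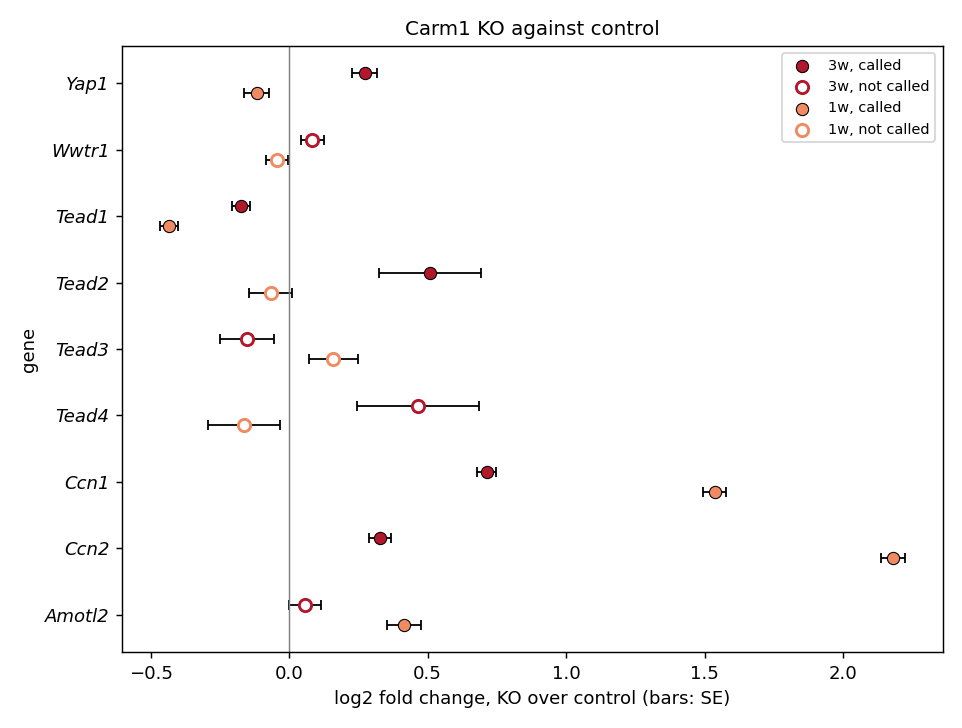
Change of each tested member with KO on the log2 scale (x axis) at 3w and at 1w, with bars of 1 SE and genes down the page. Ccn2 and Ccn1 lie at 2.18 and 1.54 at 1w and at 0.33 and 0.71 at 3w, and filled points mark called changes.

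The balance of the secreted targets differed between the groups. Per kilobase of exon, Ccn2 over Ccn1 was 0.379 and 0.395 in 3w KO, 0.478 and 0.535 in 3w control, 1.14 and 1.17 in 1w KO, and 0.776 and 0.706 in 1w control. The ratio was lower in KO than in control at 3w and higher at 1w, with no overlap at either age.

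Markers of other cells moved in the same libraries. Summed macrophage markers were 130 to 134 CPM in 3w KO, 84.9 to 86.2 CPM in 3w control, 151 to 158 CPM in 1w KO, and 47.4 to 48.7 CPM in 1w control, which is the order of the groups by Ccn2; all 10 of 10 rose with KO at 1w and 9 of 10 at 3w. Summed fibroblast markers were 627 to 640 CPM in 3w KO, 286 to 287 CPM in 3w control, 2309 to 2335 CPM in 1w KO, and 1248 to 1249 CPM in 1w control, with 9 of 9 tested markers risen with KO at both ages and Tcf21 listed at 0 in every library. Summed smooth muscle and pericyte markers were 2033 to 2038 CPM in 3w KO, 1119 to 1163 CPM in 3w control, 2314 to 2335 CPM in 1w KO, and 1777 to 1849 CPM in 1w control, and 10 of 10 rose with KO at 3w and 6 of 10 at 1w while 3 fell. Endothelial markers summed to 479 to 502 CPM in 3w KO, 448 CPM in 3w control, 1289 to 1296 CPM in 1w KO, and 1112 CPM in 1w control, and 9 of 10 rose with KO at 1w, while 6 rose and 2 fell at 3w. Atrial muscle markers summed to 643 to 656 CPM in 3w KO, 238 to 245 CPM in 3w control, 687 to 692 CPM in 1w KO, and 108 to 109 CPM in 1w control; 9 of 10 rose with KO at 1w, while 4 rose and 6 fell at 3w. Most of the atrial sum at 3w in KO was Nppa, with 590 and 577 CPM in 3w KO, 103.6 and 101.3 CPM in 3w control, 189 and 189 CPM in 1w KO, and 34.4 and 34.4 CPM in 1w control. The 6 atrial markers that fell at 3w were Myl7, Myl4, Sln, Bmp10, Dkk3 and Tbx5, so the higher sum in 3w KO does not stand for the list. Bmp10 had 0.04 and 0.10 CPM in 3w KO and 19.7 and 20.8 CPM in 3w control. At 1w Bmp10 had 179.5 and 179.9 CPM in KO, and 0.13 and 0.11 CPM in control. Epicardial markers summed to 22.8 to 24.5 CPM in 3w KO, 28.1 to 30.0 CPM in 3w control, 80.7 to 81.4 CPM in 1w KO, and 49.9 to 51.2 CPM in 1w control, and 8 of 10 rose with KO at 1w, while 2 rose and 6 fell at 3w. Median changes of the tested markers with KO at 3w were 1.12 for fibroblasts, 1.12 for smooth muscle and pericytes, 0.72 for macrophages and 0.21 for endothelium. They were -0.31 for cardiomyocytes, -0.68 for epicardium and -0.89 for atrial muscle. The part of these cells in the changes of the members, and of the gene lists described below, was not tested. In bulk samples fewer cells of a type and less RNA per cell cannot be told apart. Of 8 tested cardiomyocyte markers, 7 fell and none rose with KO at 3w, against 24.8% of all genes fallen, but 4 fell and 2 rose without scaling factors. At 1w 6 fell and 1, Myh6, rose, against 20% of all genes fallen, and the counts were the same without scaling factors.

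With age, 8 of the 9 tested members changed in KO, 3 higher and 5 lower at 3w than at 1w, against 67.9% of all genes. In control 7 of 9 changed, 4 higher and 3 lower, against 70.8% of all genes. The KO and control comparisons share no library. Within each genotype the Y-linked counts and the labelled injection days also differ between the ages. An effect of age and differences that go with either therefore cannot be told apart. Cell type markers moved with age too. In each genotype 9 of 9 tested fibroblast markers fell and 8 of 8 tested cardiomyocyte markers rose. Without scaling factors 7 cardiomyocyte markers rose in KO, and 6 rose and 1 fell in control. Of 10 endothelial markers 9 fell in each genotype, and 1 rose in control. Of 10 macrophage markers 6 fell and 1 rose in KO, while 6 rose and 1 fell in control. Smooth muscle and pericyte markers, 10 in number, had 7 fallen and 1 risen in KO and 10 fallen in control. Among 10 epicardial markers 8 fell and none rose in KO, while 6 rose and 4 fell in control. Among 10 atrial muscle markers 7 fell and 1 rose in KO, while 7 rose and 3 fell in control. Among all genes 34.6% fell and 33.2% rose in KO, and 36% fell and 34.9% rose in control. The part of such cells in the changes of the members with age was not tested. Tead2 fell by 2.70 on the log2 scale in KO (SE 0.115, edgeR adjusted p = 1.91e-30) and fell by 3.27 in control (SE 0.120, edgeR adjusted p = 5.44e-34). Tead4 fell by 1.40 in KO and fell by 2.03 in control, and Wwtr1 fell by 0.31 in KO and fell by 0.44 in control, all on the log2 scale and all called by edgeR. Tead3 fell in KO (-0.39 ± 0.093, edgeR adjusted p = 0.000187) and had -0.08 ± 0.094 in control (edgeR adjusted p = 0.445), a value called without control 1w replicate 1 (-0.23, edgeR adjusted p = 0.0385) and without scaling factors (-0.66, edgeR adjusted p = 7.55e-08).

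Tead1 was higher at 3w by 0.46 ± 0.033 in KO and by 0.20 ± 0.033 in control on the log2 scale, but without scaling factors the values were 0.04 in KO (edgeR adjusted p = 0.372) and -0.37 in control (edgeR adjusted p = 1.18e-12). The medians of all genes in that setting were -0.45 in KO and -0.60 in control. Yap1 rose by 0.39 ± 0.044 in KO (edgeR adjusted p = 1.08e-11) and had -0.003 ± 0.045 in control (edgeR adjusted p = 0.957). Without scaling factors Yap1 had -0.04 in KO (edgeR adjusted p = 0.433) and was called lower in control, at -0.58 (edgeR adjusted p = 1.33e-14), close to the median of all genes. Ccn1 rose with age in both genotypes, by 1.19 ± 0.035 in KO and by 2.02 ± 0.041 in control. Ccn2 fell by 0.38 on the log2 scale in KO (SE 0.038, edgeR adjusted p = 2.45e-13) and rose by 1.47 ± 0.046 in control (edgeR adjusted p = 4.08e-37). Amotl2 had 0.11 ± 0.057 in KO (edgeR adjusted p = 0.0861), called higher with any single control library left out (0.11 to 0.13). In control it rose by 0.47 ± 0.061 (edgeR adjusted p = 1.67e-08). Without scaling factors Amotl2 was called lower in KO, at -0.32 (edgeR adjusted p = 8.86e-05), and had -0.11 in control (edgeR adjusted p = 0.151).

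**Figure D4:**
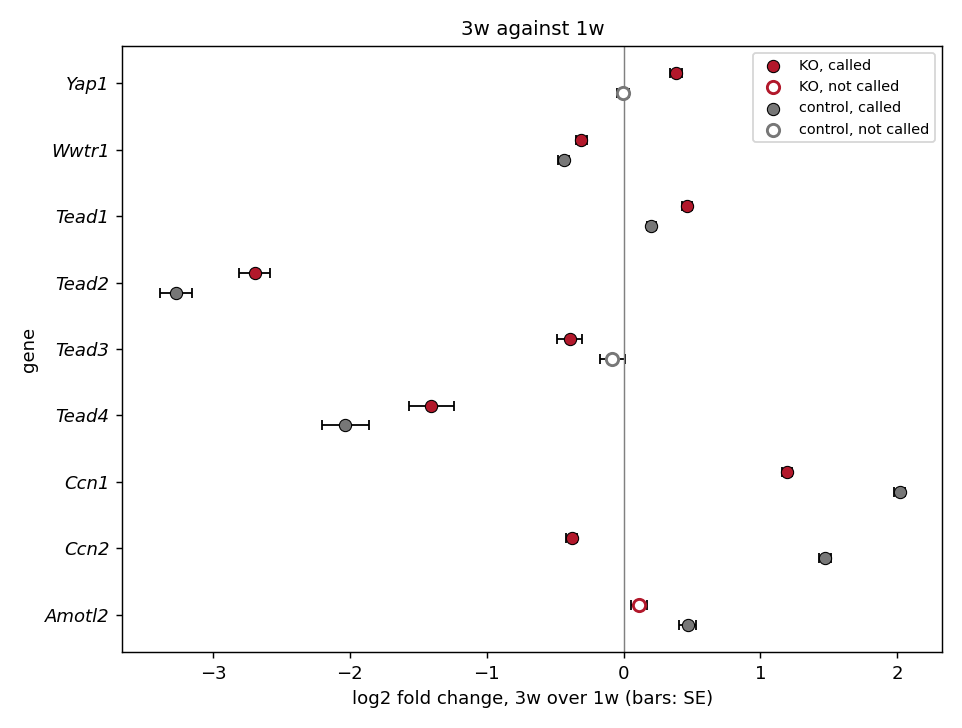
Change of each tested member at 3w against 1w on the log2 scale (x axis), in KO and in control, with bars of 1 SE and genes down the page. Tead2 and Tead4 lie far below 0 in both genotypes, and Ccn2 lies at -0.38 in KO and 1.47 in control.

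The difference between the KO changes at 3w and 1w is also the difference between the age changes in KO and control. It was called for Yap1 (0.39 ± 0.063), Tead1, Tead2 (0.57 ± 0.198, edgeR adjusted p = 0.018), Tead4 (0.63 ± 0.256, edgeR adjusted p = 0.0481), Ccn1, Ccn2 and Amotl2. The median over the 9 tested members was 0.13, against 0.00 over all genes, and the 3 tested targets were negative, as was Tead3, while the other members were positive. The calls of Tead2 and Tead4 were lost with DESeq2, at an adjusted p of 0.0987 for Tead2 and 0.216 for Tead4. For Tead2 the call was also lost without control 3w replicate 2, KO 1w replicate 1 or KO 3w replicate 1 (0.45 to 0.52, edgeR adjusted p = 0.0552 to 0.168). For Tead4 it was lost without control 1w replicate 1, control 3w replicate 2, KO 1w replicate 2, KO 3w replicate 1 or KO 3w replicate 2 (0.46 to 0.65, edgeR adjusted p = 0.105 to 0.209). Wwtr1 (0.13 ± 0.057, edgeR adjusted p = 0.0732) was called without control 1w replicate 1 (edgeR adjusted p = 0.0266), without control 3w replicate 2 (edgeR adjusted p = 0.0472) and without scaling factors (0.28, edgeR adjusted p = 0.000241), and Tead3 (-0.31 ± 0.132, edgeR adjusted p = 0.0591) without control 1w replicate 2 (edgeR adjusted p = 0.0018).

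Upstream of YAP, genes of the Hippo kinases, their adaptors and regulators mostly rose at 3w. Of 24 such genes 14 rose and 2 fell with KO at 3w, with a median of 0.20, where 24.4% of all genes rose and 24.8% fell around a median of 0.01. Without scaling factors 20 rose and 1 fell. Over both ages, the comparison balanced for the Y-linked transcripts, 7 rose and 2 fell (median 0.12), where 16.3% of all genes rose and 14.5% fell. Without scaling factors 15 rose and 1 fell over both ages. The protocadherins Fat1, Fat4 and Dchs1, which in Drosophila feed into the pathway from the cell surface, changed by 1.06 ± 0.051, 1.12 ± 0.109 and 1.25 ± 0.114 at 3w. Fat1 had 55.8 and 54.7 CPM in 3w KO, against 26.8 and 26.1 CPM in 3w control. Over both ages Fat1 had 0.56 ± 0.191 and was not called (edgeR adjusted p = 0.0635). Fat4 (0.66 ± 0.150) and Dchs1 (0.69 ± 0.169) were called higher there. Ajuba, a LIM protein that inhibits the Lats kinases, rose by 0.56 ± 0.142 (edgeR adjusted p = 0.00081).

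At 1w the same list was split, with 5 of 24 genes higher and 5 lower in KO and a median of 0.03, where 23% of all genes rose and 20% fell around a median of 0.02. Without scaling factors 10 rose and 3 fell. The kinase Taok3 rose by 0.70 ± 0.104 (edgeR adjusted p = 8.58e-08), while Taok1, a kinase that activates the Hippo kinases, fell by 0.52 on the log2 scale (SE 0.072, edgeR adjusted p = 1.71e-08). Fat4 rose by 0.31 ± 0.071, and Ajuba rose by 0.35 ± 0.103 (edgeR adjusted p = 0.004), a call lost with DESeq2 (adjusted p = 0.148), without control 1w replicate 2 (edgeR adjusted p = 0.0636) and without KO 1w replicate 1 (edgeR adjusted p = 0.0551). With age 13 of 24 fell and 4 rose in KO, where 34.6% of all genes fell and 33.2% rose. In control 17 fell and 4 rose, where 36% of all genes fell and 34.9% rose. Without scaling factors 20 fell and 2 rose in KO, and 22 fell and none rose in control.

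**Figure D5:**
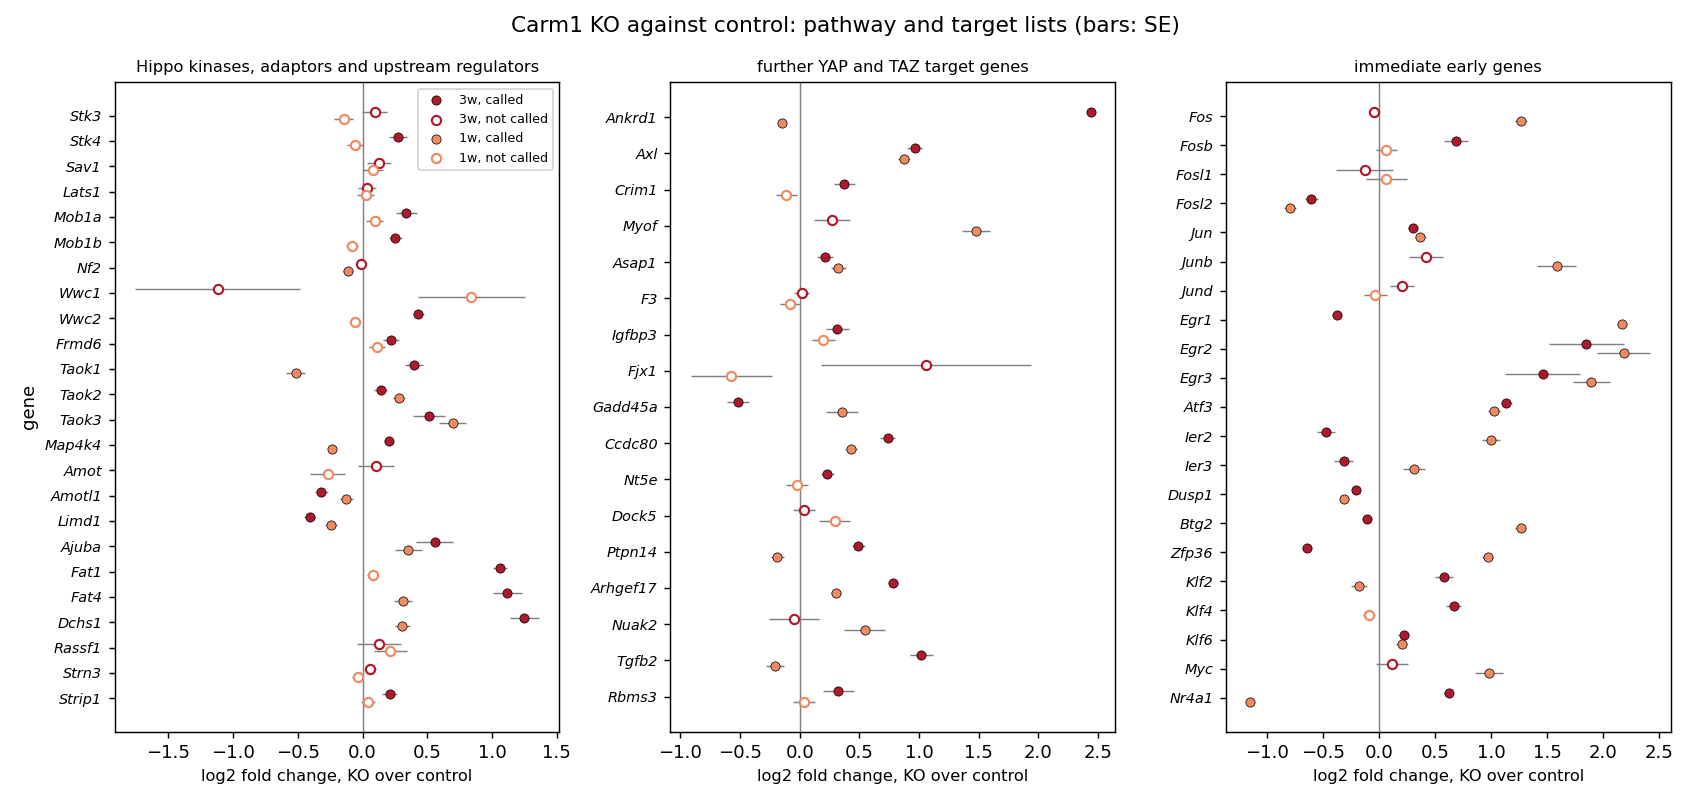
Change with KO on the log2 scale (x axis) for each tested gene of the Hippo, further target and immediate early lists (y axis), at 3w and at 1w, filled points for called genes and bars of 1 SE. Of the 24 Hippo genes 14 are called higher at 3w and 5 at 1w, and Ankrd1 lies at 2.44 at 3w.

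Further YAP and TAZ targets were taken from a list of 18, of which 17 were tested. With KO at 3w, 11 rose and 1 fell (median 0.32), where 24.4% of all genes rose and 24.8% fell. At 1w 7 rose and 3 fell (median 0.20), where 23% of all genes rose and 20% fell. Without scaling factors 14 rose and 1 fell at 3w, and 9 rose and none fell at 1w. Over both ages 6 rose and none fell (median 0.26), where 16.3% of all genes rose and 14.5% fell. Ankrd1, a stress-responsive ankyrin repeat protein of the sarcomere and nucleus, had 905 and 925 CPM in 3w KO, 165 and 172 CPM in 3w control, 662 and 652 CPM in 1w KO, and 727 and 729 CPM in 1w control. Only 3w control stood apart at a low level. Ankrd1 thus changed by 2.44 ± 0.031 at 3w (edgeR adjusted p = 1.07e-57). At 1w it had -0.15 and was called lower (edgeR adjusted p = 2.24e-05). Over both ages it had 1.14 ± 0.594 and was not called (edgeR adjusted p = 0.207). The lowest group of Ccn1 and Ccn2 was instead 1w control. Axl, a receptor tyrosine kinase, rose at both ages, by 0.96 ± 0.061 at 3w and by 0.88 ± 0.050 at 1w. Myof, a membrane repair protein, rose at 1w (1.48 ± 0.118) and had 0.27 at 3w. Tgfb2, a growth factor, rose by 1.02 ± 0.094 at 3w and had -0.21 at 1w, where it was called lower. Over both ages Tgfb2 had 0.37 ± 0.235 and was not called (edgeR adjusted p = 0.278). Axl (0.92 ± 0.053) and Myof (0.91 ± 0.223) were called higher over both ages. At 3w Arhgef17 rose by 0.78 ± 0.043, and at 1w Ccdc80 rose by 0.43 ± 0.053 and the kinase Nuak2 by 0.54 ± 0.173 (edgeR adjusted p = 0.00824), the last of these lost with DESeq2 (adjusted p = 0.163), without control 1w replicate 2 (edgeR adjusted p = 0.0899) and without KO 1w replicate 2 (edgeR adjusted p = 0.0693).

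Among the other CCN genes, Ccn3 and Ccn4 were tested. Ccn3 rose at 1w by 0.86 ± 0.080, and Ccn4 rose by 1.14 ± 0.122 at 3w and by 0.40 ± 0.087 at 1w. Of the vestigial-like cofactors, which compete with YAP for TEAD, Vgll3 and Vgll4 were tested, and Vgll3 rose at 1w (0.82 ± 0.245, edgeR adjusted p = 0.00793), a call lost with DESeq2 (adjusted p = 0.118), without control 1w replicate 1 (0.63, edgeR adjusted p = 0.0613), without KO 1w replicate 1 (edgeR adjusted p = 0.0624) and without KO 1w replicate 2 (edgeR adjusted p = 0.053). At 3w neither was called. Of the SRF cofactors, which act on many of the same targets, Myocd rose at 3w (0.35 ± 0.040) and fell at 1w by 0.62 on the log2 scale (SE 0.039). Mrtfa rose by 0.49 ± 0.104 at 3w and by 0.31 ± 0.083 at 1w, the second of these lost with DESeq2 (adjusted p = 0.0906) and without control 1w replicate 2 (0.24, edgeR adjusted p = 0.0818).

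Ccn1 also belongs to the genes that respond within minutes to stimulation of a cell, and 21 other immediate early genes were set beside it. With KO at 3w 9 rose and 7 fell (median 0.20), where 24.4% of all genes rose and 24.8% fell. At 1w 13 rose and 4 fell (median 0.37), where 23% of all genes rose and 20% fell. Without scaling factors 14 rose and 4 fell at 3w, and 13 rose and 3 fell at 1w. Over both ages 8 rose and 2 fell (median 0.27), where 16.3% of all genes rose and 14.5% fell. Egr1, a zinc finger factor, had 123 and 117 CPM in 3w KO, 157 and 155 CPM in 3w control, 152 and 152 CPM in 1w KO, and 31.6 and 35.3 CPM in 1w control. As with Ccn1 and Ccn2, 1w control was the lowest group, and the change of Egr1 at 1w was 2.17 ± 0.043. At 3w Egr1 was called lower with KO (-0.38 ± 0.038, edgeR adjusted p = 3.34e-13), where Ccn1 and Ccn2 rose. Egr2 and Egr3 rose at both ages, by 1.85 ± 0.335 and 1.46 ± 0.336 at 3w and by 2.18 ± 0.238 and 1.90 ± 0.167 at 1w, at levels under 6 CPM. Atf3 rose by 1.14 ± 0.049 and Fosb by 0.69 ± 0.103 at 3w, and Junb rose by 1.59 ± 0.174 at 1w. The part of such a response in the values of Ccn1 and Ccn2 was not tested.

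Genes whose log2 CPM followed a member most closely over the 8 libraries were sought among 6850 genes with a mean of at least 10 CPM, as a description. The libraries form 4 groups, so a high Pearson correlation reflects little more than 4 group means. For Ccn2 these were Mrc1 (0.99), C1qa (0.99), Yars (0.98) and C1qc (0.98), of which Mrc1, C1qa and C1qc are in the list of macrophage markers. For Tead1 they were Scnm1, Daam1, Mtus1, Msi2 and Slain2, all at 0.99. For Yap1 they were Zfp646 (0.99), Clic4 (0.98), Scmh1 (0.98), Lgr6 (0.97) and Cep128 (0.97).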

How the data were processed

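Messenger RNA of isolated mouse cardiomyocytes was sequenced in 8 libraries, 2 for each of 4 groups. The authors deposited 1 table of raw gene counts, read here as whole-number counts. Per the submitters' processing notes, reads were checked with FastQC and MultiQC, aligned to mm10 with HISAT2 and counted with featureCounts, and DESeq2 was used; their versions, the strand setting and the gene models behind the counts are unknown here. Libraries were made, per the labels' protocols, with SMART and Nextera XT kits. GENCODE M21 named 54723 of 54752 IDs.

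Genes were kept with edgeR's filterByExpr (minimum count 10, minimum total 15), which left 14665. Library sizes were scaled by TMM. The test was edgeR's quasi-likelihood F-test (robust) on 1 fit of the 4 groups, or on an additive fit of age and KO for both ages together, with Benjamini-Hochberg adjustment across the genes kept. The procedure was also run on simulated counts in which few genes changed, evenly up and down. That setting does not test the scaling where many genes change. Levels per kilobase divide CPM by the merged exon length. The members, the gene lists and the tests were chosen with earlier results of these data known. All members are named. From each pathway list up to 4 called genes with the largest change in size are named at each age, and for Yap1, Tead1 and Ccn2 the 5 genes most alike in log2 CPM (prior count 2), of which 1 for Ccn2 is not reported here. Alternatives were DESeq2, other or no scaling factors, no mitochondrial genes, no filter, a replicate block, fits of 2 groups alone, and each library left out. Libraries of a group differed by more than sampling noise (chi-square per gene 1.45 to 6.64) and were kept separate. The software was R 4.3.3, edgeR 4.0.16, limma 3.58.1 and DESeq2 1.42.0.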

Additional observations from a re-analysis of the deposited data

Results flagged for a closer look

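The change with KO differed between 3w and 1w, by an interaction test in edgeR with Benjamini-Hochberg adjustment, for the following genes. Values are the log2 change at 3w less that at 1w. The Y-linked transcripts were present in opposite groups at the 2 ages, and this difference and one that goes with them cannot be told apart.

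Among the members the value was -1.85 for Ccn2, -0.82 for Ccn1 and -0.36 for Amotl2, so that the targets differed less between KO and control at 3w. It was 0.39 for Yap1, 0.26 for Tead1, 0.57 for Tead2 and 0.63 for Tead4. The deleted gene Carm1 had -0.34, a deeper fall at 3w.

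In the Hippo list the value was 0.98 for Fat1, 0.94 for Dchs1, 0.91 for Taok1 and 0.81 for Fat4. Among further YAP and TAZ targets it was 2.59 for Ankrd1, 1.23 for Tgfb2, 0.48 for Arhgef17, 0.31 for Ccdc80 and -1.20 for Myof. Ccn4 had 0.74 and Myocd 0.97. Among immediate early genes the value was -2.55 for Egr1, -1.17 for Junb and 0.62 for Fosb.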

How the results depend on the processing

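Over 792 values of the members under alternative settings, 715 kept their direction and their side of the threshold, 23 lost a call, 24 gained one and 30 changed sign; of 510 values of other named genes 498 kept both and 12 lost a call. With DESeq2 3765 genes were called in KO against control at 1w, against 6305, and 3150 for the difference between ages, against 5215. Without scaling factors the median of all genes moved to 0.25 (KO at 3w), 0.12 (KO at 1w), 0.18 (both ages), -0.45 (age in KO), -0.60 (age in control) and 0.15 (difference between ages), rises made up 18.5% in place of 49% of calls for age in KO, 16.6% in place of 49.2% for age in control and 73.9% in place of 49.6% for the difference between ages, and 4 members were called over both ages, against 2. The values that changed sign there were Wwtr1 0.055 and Tead2 0.033 (KO at 1w), Tead1 0.076 and Tead3 0.095 (KO at 3w), Yap1 -0.041 and Amotl2 -0.32 (age in KO), and Tead1 -0.37 and Amotl2 -0.11 (age in control). Yap1 for age in control, -0.003, changed sign with DESeq2 (0.014), RLE factors (0.011), no filter (0.0018) and the 2 groups alone (0.0053). The cause was not tested.

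With 1 library left out, the lone library of a group is assumed to vary like the others. The ranges were 4 to 5 members and 4859 to 6529 genes called (KO at 1w), 4 to 6 and 6020 to 7409 (KO at 3w), 2 to 3 and 3474 to 3869 (both ages), 8 to 9 and 9003 to 10159 (age in KO), 7 to 8 and 9418 to 10446 (age in control), and 5 to 8 and 4355 to 4906 (difference between ages). Values that changed sign ran from -0.084 to 0.0019 (Wwtr1, KO at 1w), -0.020 to 0.12 (Amotl2, KO at 3w), -0.089 to 0.062 (Tead3), -0.049 to 0.22 (Tead4) and -0.016 to 0.048 (Wwtr1, the last 3 over both ages), and -0.030 to 0.053 (Yap1) and -0.23 to 0.15 (Tead3) for age in control.

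Labels give replicate numbers, and at each age the KO and control libraries of the same number share a labelled injection day. Same-numbered libraries did not deviate together (correlations -0.022 to 0.008). With 2 libraries a group this cannot show whether the samples are paired. With the replicate block 6172 genes were called in KO against control at 1w, 7106 at 3w and 3670 over both ages, and no member's call changed. Depth limits Tead4 and Tead2 at 3w, at under 3 CPM.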
